A study of Caenorhabditis elegans with 2 samples.

Results

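The genes described are 10 regulators of insulin signalling and of the stress responses of Caenorhabditis elegans: daf-2, age-1, daf-16, pqm-1, skn-1, hsf-1, xbp-1, atf-7, crh-1 and hlh-30. They were chosen by name, and all 10 are among the 19973 protein-coding genes that the Ensembl release 115 annotation of the WBcel235 assembly, also called ce11, places on the 6 nuclear chromosomes. For each gene, the peaks with a summit (the base of highest enrichment) no more than 1000 bp from its annotated 5′ end were taken from every deposited peak list. The peaks come from chromatin immunoprecipitation and sequencing (ChIP-seq) of MADF-6, whose MADF domain is a Myb-related type of DNA-binding domain. The animals were whole young adults aged 63 h of strain RW12237, in which a CRISPR insertion fuses TY1, EGFP and 3xFLAG tags to madf-6 at its own locus (allele st12237). They had been synchronised by bleaching and starvation of first-stage larvae. There was 1 group, MADF-6-EGFP young adults, with 2 biological replicates, and both carried the insertion. The labels describe an antibody against GFP, although their antibody field names madf-6. Each replicate was a mixture of all tissues, so a peak could not be assigned to a cell type, and no untagged strain was analysed here.

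In C. elegans, insulin-like peptides act on the receptor DAF-2, which through the lipid kinase AGE-1 keeps the forkhead factor DAF-16 out of the nucleus. When the pathway is less active, DAF-16 enters the nucleus and turns on genes of longevity and stress resistance, while the zinc finger factor PQM-1 shows the opposite nuclear pattern. The other genes encode transcription factors of oxidative stress (SKN-1), heat shock (HSF-1), the unfolded protein response of the endoplasmic reticulum (XBP-1), p38 immune signalling (ATF-7), cyclic AMP signalling (CRH-1) and autophagy (HLH-30).

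The replicates' own thresholded lists held 2803 peaks (replicate 1) and 4519 peaks (replicate 2), and the conservative list made from both held 4384, with a median signal of 149. The signal is the authors' enrichment value for a peak, and its scale differs between lists, so it is compared within a list only. The score is a scaled irreproducible discovery rate with a highest value of 1000, and every thresholded peak scored at least 830. Each list was also deposited before thresholding as a ranked list of 57453 to 65847 calls. Peak lists give no read counts, so the depth and the counting error of every value are unknown. The tagged gene itself had a conservative summit with a signal of 600 (rank 384), 181 bp upstream of the 5′ end. That peak was in the thresholded list of replicate 2 with a signal of 283, but in replicate 1 it was only in the ranked list, with a signal of 261 and a score of 49.

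MADF-6 peaks stood at the 5′ ends of 4 of the 10 regulators in the conservative list: daf-2, xbp-1, atf-7 and crh-1. Over all protein-coding genes, 3158 of 19973 (15.8%) had such a summit. The 6 genes with none were age-1, daf-16, pqm-1, skn-1, hsf-1 and hlh-30. By this threshold the receptor gene daf-2 was called and age-1 and daf-16 were not, although both had ranked calls near the 5′ end. The same 4 genes were called in the less strict list (17.3% of all genes) and in the thresholded list of replicate 2 (16.5% of all genes). Replicate 1 called 3 of the 10 (11.4% of all genes), and the gene it lacked was xbp-1. These are counts over 10 genes chosen by name, and no test was made of them. The median conservative signal of the 4 genes was 169, against 206 over the 3158 genes, each taken at its highest peak.

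All 4 called genes lie on chromosome III, where 25.9% of protein-coding genes had a conservative summit near the 5′ end. The other 6 regulators lie in pairs on the chromosomes with 23.9%, 17.9% and 16.8% of genes called. None is on chromosome V or X, where 10.8% and 2.93% of genes were called.

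The windows at the daf-2, crh-1 and xbp-1 summits are printed because these are the 5′ ends where MADF-6 peaks were found. The others are the most enriched peak within any of the 10 genes, in an intron of skn-1, and the peak after xbp-1. All are read on the plus strand of WBcel235, reach up to 120 bases to each side of the summit and stop before any annotated exon. The atf-7 window is left out because its summit lies in an exon. Capitals mark the word GCGC, the cyclic AMP response element (CRE) letters TGACGTCA, the E-box CACGTG, the unfolded protein response core ACGTGG, the heat shock pair GAANNTTC and the DAF-16 associated element CTTATCA.
daf-2 5′ end, chrIII:3040847-3041040: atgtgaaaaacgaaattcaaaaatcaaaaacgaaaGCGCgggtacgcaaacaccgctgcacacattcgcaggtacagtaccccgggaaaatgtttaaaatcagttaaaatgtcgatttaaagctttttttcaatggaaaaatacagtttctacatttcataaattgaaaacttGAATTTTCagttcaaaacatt
crh-1 5′ end, chrIII:11657267-11657507: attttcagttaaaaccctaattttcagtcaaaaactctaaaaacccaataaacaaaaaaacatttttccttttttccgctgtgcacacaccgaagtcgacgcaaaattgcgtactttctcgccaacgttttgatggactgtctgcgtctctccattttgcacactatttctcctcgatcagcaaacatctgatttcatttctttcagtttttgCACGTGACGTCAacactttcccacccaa
xbp-1 5′ end, chrIII:4193678-4193808: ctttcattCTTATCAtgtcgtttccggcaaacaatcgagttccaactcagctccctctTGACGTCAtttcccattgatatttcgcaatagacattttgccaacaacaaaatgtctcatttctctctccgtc
skn-1 intron, chrIV:5657089-5657317: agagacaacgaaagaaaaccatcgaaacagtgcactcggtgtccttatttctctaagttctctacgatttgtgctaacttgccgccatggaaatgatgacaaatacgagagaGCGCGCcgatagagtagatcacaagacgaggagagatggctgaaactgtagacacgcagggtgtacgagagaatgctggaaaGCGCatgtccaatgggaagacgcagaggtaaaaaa
after xbp-1, chrIII:4195452-4195692: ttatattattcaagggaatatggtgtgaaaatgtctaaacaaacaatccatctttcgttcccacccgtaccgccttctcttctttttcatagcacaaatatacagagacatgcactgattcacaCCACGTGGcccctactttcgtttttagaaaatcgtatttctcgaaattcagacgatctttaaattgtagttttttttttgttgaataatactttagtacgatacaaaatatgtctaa

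The insulin receptor gene daf-2 (WBGene00000898, chrIII:2994514-3040846, minus strand) had the highest 5′ peak of the 10 genes. Its conservative summit at position 3040920 was 74 bp upstream of the 5′ end, with a signal of 347, rank 823 of 4384 and the highest score, 1000. This signal was above the highest peak of 71.0% of the 3158 called genes. Replicate 1 placed the summit 94 bp upstream with a signal of 122 (rank 717 of 2803), and replicate 2 placed it 53 bp upstream with a signal of 219 (rank 905 of 4519). Both replicates therefore scored it 1000 and put it in the upper part of their lists, with summits 41 bp apart. No other protein-coding 5′ end was near: the closest, of cutl-25, was 6220 bp from the summit. The annotation gives daf-2 7 transcript starts spread over 39534 bp, and of these only the outermost had a thresholded summit within 1000 bp.

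The next genes of the pathway had calls in ranked lists only. age-1 (WBGene00000090, chrII:11519328-11527054, minus strand) encodes the catalytic subunit of the phosphoinositide 3-kinase. Its highest combined call was 243 bp inside the gene, in an intron, with a signal of 52.8 and a score of 565, and of 442 in the second combined ranked list. The best call of replicate 1 was 24 bp inside with a signal of 21.3 and a score of 50, and that of replicate 2 was 253 bp inside with a signal of 38.6 and a score of 172. The replicates thus differed by 229 bp in where the highest call lay, and both scores were far below the lowest thresholded score.

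daf-16 (WBGene00000912, chrI:10750498-10776703, plus strand) encodes the forkhead factor that insulin signalling restrains. Its best combined call was 168 bp inside the gene, with a signal of 62.1 and a score of 529, and of 441 in the second list. Replicate 1 had a signal of 23.7 and a score of 49 there, and replicate 2 a signal of 34.5 and a score of 423, with summits 12 bp apart. The position was therefore shared although neither replicate kept the call. For pqm-1 (WBGene00004096, chrII:11150391-11152595, minus strand) the best combined call was 359 bp inside, in a coding exon, with a signal of 47.9 and a score of 294, and of 487 in the second list. Replicate 1 gave 17.3 with a score of 79 and replicate 2 gave 46.3 with a score of 792, just short of the lowest thresholded score, and the summits were 59 bp apart.

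Among the oxidative stress and heat shock genes, skn-1 (WBGene00004804, chrIV:5651039-5660384, minus strand) had several low calls near its 5′ end. The one of highest combined signal, 44.4, was 196 bp upstream and scored 268, and 344 in the second list. The next, 40.1, was 298 bp inside and scored 363, and 85 in the second list. The best call of replicate 1 (signal 17.7, score 64) was 362 bp inside and that of replicate 2 (signal 40.8, score 755) was 728 bp inside. At 366 bp this was the widest separation between the best calls of the replicates among the 10 genes. Replicate 2 also had a lower call 295 bp inside (signal 31.1), nearer to the best call of replicate 1. hsf-1 (WBGene00002004, chrI:11953507-11963085, minus strand) had the lowest combined signal of the 10 genes, 42.0 at 129 bp upstream. That call scored 85 in this list and 476 in the second combined ranked list. Replicate 1 had a signal of 8.09 and a score of 25 there, with 6.50% of genes that had a ranked call lying lower, while replicate 2 had 35.4 and a score of 589, with 51.9% lower. The 2 summits were 20 bp apart.

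xbp-1 (WBGene00006959, chrIII:4193809-4195358, plus strand), whose messenger RNA is spliced by IRE-1 during endoplasmic reticulum stress, was called in a single replicate. Its conservative summit at position 4193798 was 11 bp upstream, with a signal of 103 and rank 3071 of 4384, above 17.6% of the called genes. Replicate 2 called it in the 5′ UTR, 36 bp inside, with a signal of 59.3 and a score of 1000, and also called a coding-exon summit 759 bp inside, with a signal of 53.5 and a score of 969. In replicate 1 the call 5 bp upstream had a signal of 36.3 and a score of 616, so it stayed in the ranked list. The summits of the replicates were 41 bp apart, and 5.94% of the ranked calls of replicate 1 and 6.17% of those of replicate 2 ranked at or above these calls. The nearest other protein-coding 5′ end, of dnj-16, was 2657 bp from the conservative summit.

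atf-7 (WBGene00000223, chrIII:4491627-4499045, minus strand) encodes an ATF2-like bZIP factor of innate immunity. It had the weakest of the 4 conservative peaks at 5′ ends: the summit at position 4499040 was 5 bp inside the gene, with a signal of 88.1, a score of 941 and rank 3538. Only 8.90% of called genes had a lower highest peak. Both replicates called it, 12 bp upstream with a signal of 42.2 and a score of 894 in replicate 1 and 11 bp upstream with a signal of 47.4 and a score of 891 in replicate 2. The replicates were 1 bp apart, the closest of all 10 genes, at ranks 2439 of 2803 and 4306 of 4519. The summit is also 2 bp from the 5′ end of C07G2.5, an annotated protein-coding gene of 72 bp on the same strand that lies wholly within atf-7, and these 2 assignments cannot be told apart.

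crh-1 (WBGene00000793, chrIII:11657767-11693981, plus strand), the gene of the CREB homologue, had the second highest 5′ peak. The conservative summit at position 11657387 was 380 bp upstream with a signal of 234 and rank 1312, above 56.2% of called genes. Replicate 1 placed it 369 bp upstream with a signal of 71.7 (rank 1407 of 2803), and replicate 2 placed it 386 bp upstream with a signal of 165 (rank 1301 of 4519). Both scores were 1000 and the summits were 17 bp apart. It was the farthest from a 5′ end of the 4 summits, and the only call of any list within 1000 bp of that end. The nearest other 5′ end, of faah-6, was 6935 bp away. As in daf-2, of 7 annotated transcript starts only the outermost had a thresholded summit in reach.

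hlh-30 (WBGene00020930, chrIV:4014793-4034951, minus strand) encodes the homologue of the mammalian autophagy and lysosome factor TFEB. Among the genes that were not called it had the highest combined signal, 77.4 at 78 bp upstream, which is close to the 88.1 of atf-7. Its score there was 346, and 691 in the second ranked list, against the threshold of 830. Replicate 1 (signal 18.3, score 49) and replicate 2 (signal 49.8, score 339) placed their best calls 209 bp apart.

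**Figure D1:**
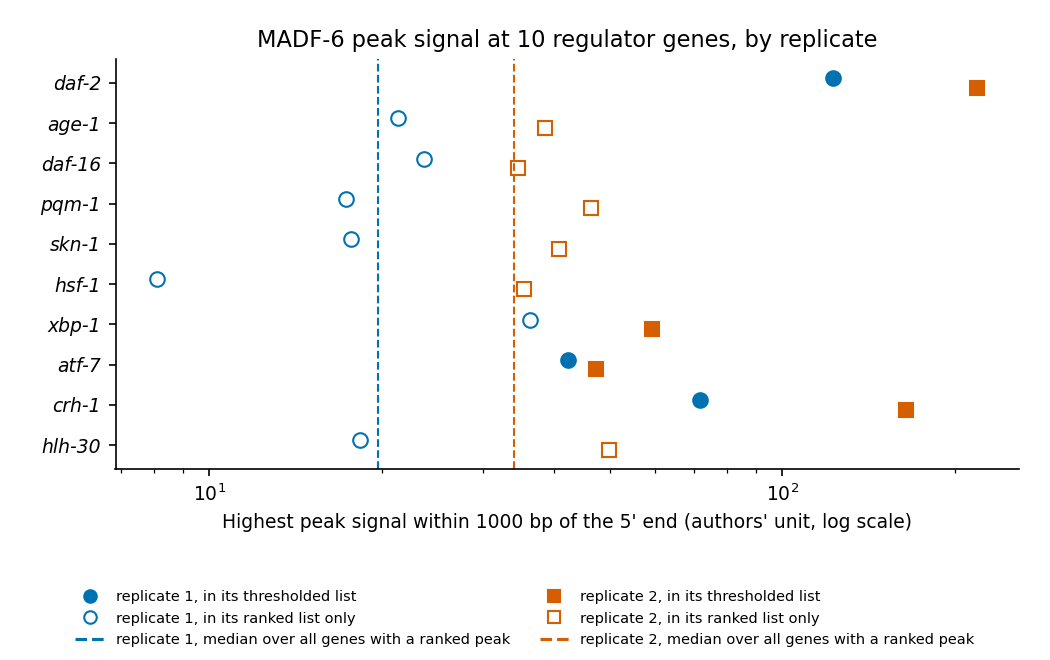
The horizontal axis gives the highest peak signal within 1000 bp of each 5′ end in the authors' unit on a log scale, with 1 row per gene, circles for replicate 1 and squares for replicate 2. Filled points are in that replicate's thresholded list and open points are in its ranked list only, and the dashed lines mark the medians over all protein-coding genes with a ranked call, 19.7 in replicate 1 and 34.1 in replicate 2. The daf-2 points, at 122 and 219, are the highest in each replicate, and the hsf-1 point of replicate 1, at 8.09, is the lowest.

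**Figure D2:**
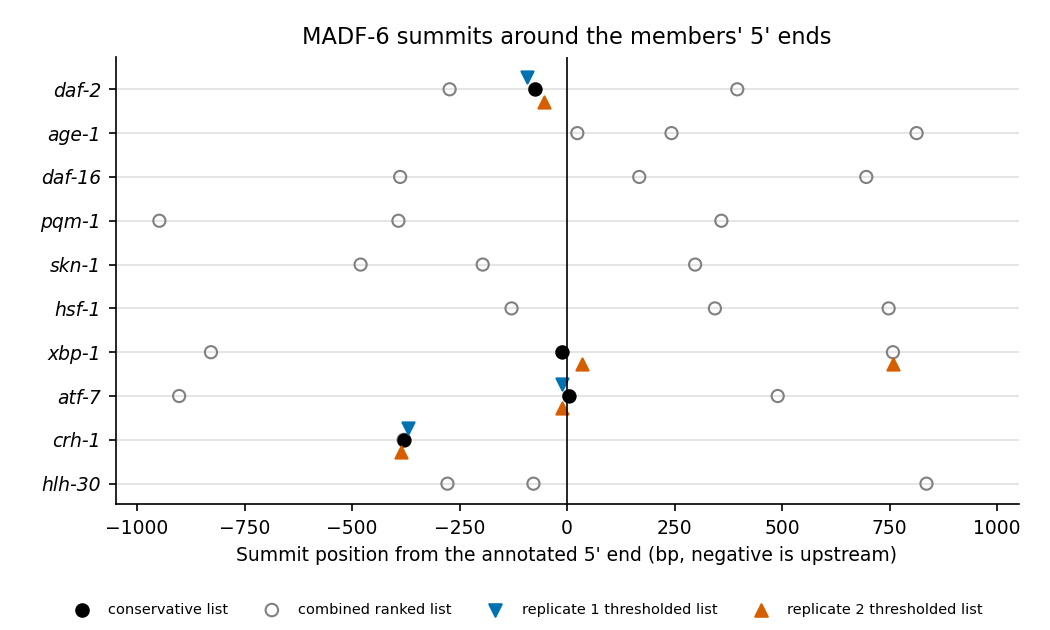
The horizontal axis gives the summit position in bp from the annotated 5′ end, upstream to the left, for each of the 10 genes. Filled circles are conservative summits, open circles combined ranked calls, and triangles the thresholded summits of each replicate, while a combined call hidden under a filled circle is the same peak. The filled circles stand 74 bp upstream at daf-2, 11 bp upstream at xbp-1, 5 bp inside atf-7 and 380 bp upstream at crh-1.

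A ranked call was common at any gene. All 10 regulators had one in the combined ranked list, against 51.4% of protein-coding genes. All 10 also had one in the ranked list of replicate 1 (56.1% of genes) and in that of replicate 2 (54.2% of genes). The median of the highest combined signal was 69.8 over the 10 regulators and 51.7 over the 10266 genes with a call. It was 22.5 against 19.7 in replicate 1, and 46.8 against 34.1 in replicate 2. Between the replicates, the highest ranked calls of the regulators were a median of 41 bp apart, with 6 of 10 within 50 bp. The 9242 protein-coding genes with a call in both ranked lists had a median of 80 bp, with 42.9% within 50 bp. For the 3 regulators called in both thresholded lists the median was 17 bp, against 12 bp over 2145 genes.

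Further peaks stood inside the regulators or just after them. In the conservative list 7 of the 10 had a summit within the gene or up to 1000 bp past its 3′ end. Only summits more than 1000 bp from the 5′ end were counted, 9 in all. Over all protein-coding genes the share was 12.1%. The less strict list gave 6 regulators (13.8% of genes), replicate 1 gave 5 (7.70%) and replicate 2 gave 6 (12.4%). The regulators are long, with a median of 9462.5 bp, against 2027 bp over all genes. In the conservative list, 3 of the 5 regulators at least as long as their own median had such a summit. Of the 1114 protein-coding genes of that length 23.2% did. In each replicate's own list 2 of these 5 did, beside 14.6% of such genes in replicate 1 and 23.3% in replicate 2. The shorter regulators with a conservative summit of this kind were xbp-1 (1550 bp), pqm-1 (2205 bp), atf-7 (7419 bp) and skn-1 (9346 bp). daf-2, age-1 and crh-1 had none, although daf-2 is the longest of the 10 at 46333 bp.

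The highest of these peaks, and the highest conservative peak at any of the 10 genes, lay in an intron of skn-1. Its summit at chrIV position 5657209 was 3175 bp inside the gene and 1604 bp upstream of the start of transcript T19E7.2c.1, with a signal of 388 and rank 716. Replicate 1 (signal 113, rank 808) and replicate 2 (signal 269, rank 711) placed the summit on the same base. skn-1 was among the 6 regulators with no thresholded summit at the 5′ end. The printed window holds GCGC 8 to 5 bases before the summit, again 6 to 3 bases before it, overlapping the first, and 74 to 77 bases after it.

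Peaks past the 3′ end stood at atf-7, xbp-1, hsf-1, pqm-1 and hlh-30. The one after atf-7, 198 bp past the gene end and 622 bp wide, had a signal of 248 (rank 1236), above the 88.1 at its own 5′ end. It was called in replicate 1 (signal 79.4, 121 bp past the end) and in replicate 2 (signal 187, 173 bp past the end). The one after xbp-1, 214 bp past the end, had a signal of 190.5 (rank 1708), again above the 103 at the 5′ end, and it was in both replicates with signals of 75.5 and 108. For both genes the enriched place after the gene was therefore higher in the same list than the one before it. The nearest other protein-coding 5′ ends were those of cpg-1, 2070 bp from the summit after atf-7, and of asd-1, 1713 bp from the summit after xbp-1.

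The peak after hsf-1 was 573 bp past the end, inside the neighbouring gene R06C1.6, with a signal of 118 (rank 2695). Both replicates called it, with signals of 47.5 and 79.3. The peak after pqm-1 was 374 bp past the end, inside arrd-6, with a signal of 94.4 (rank 3328). Replicate 2 called it with a signal of 51.4, replicate 1 did not, and it was absent from the less strict list. A peak that lies in a neighbour belongs to that gene by position as much as to the regulator.

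The remaining conservative summits were weak and in no thresholded list of a single replicate. The daf-16 summit and the one past hlh-30 were also absent from the less strict list. The 4 were in introns of daf-16 (chrI position 10770077, 1431 bp upstream of the start of transcript R13H8.1a.1, signal 74.0, rank 4010) and atf-7 (376 bp upstream of the start of transcript C07G2.2c.1, signal 76.6, rank 3940), and at 2 places of hlh-30. In hlh-30 an intronic summit 181 bp upstream of the start shared by transcripts W02C12.3b.1 and W02C12.3c.1 had a signal of 89.2 (rank 3492), and a summit 243 bp past the gene end had 78.9 (rank 3866). If the 5′ ends of all annotated transcripts are used, hlh-30 therefore joins the called genes. daf-16 also had thresholded summits that were not in the conservative list. In its 3′ UTR a summit stood 163 bp before the gene end in replicate 1 (signal 23.3) and 175 bp before it in replicate 2 (signal 40.0). The less strict list had a summit 174 bp before the end (signal 55.1). Replicate 1 had a further 3′ UTR summit (signal 21.2). An intronic summit was in replicate 2 (signal 63.9) and in the less strict list (signal 79.1). That intronic summit also lies in the non-coding RNA gene R13H8.4.

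**Figure D3:**
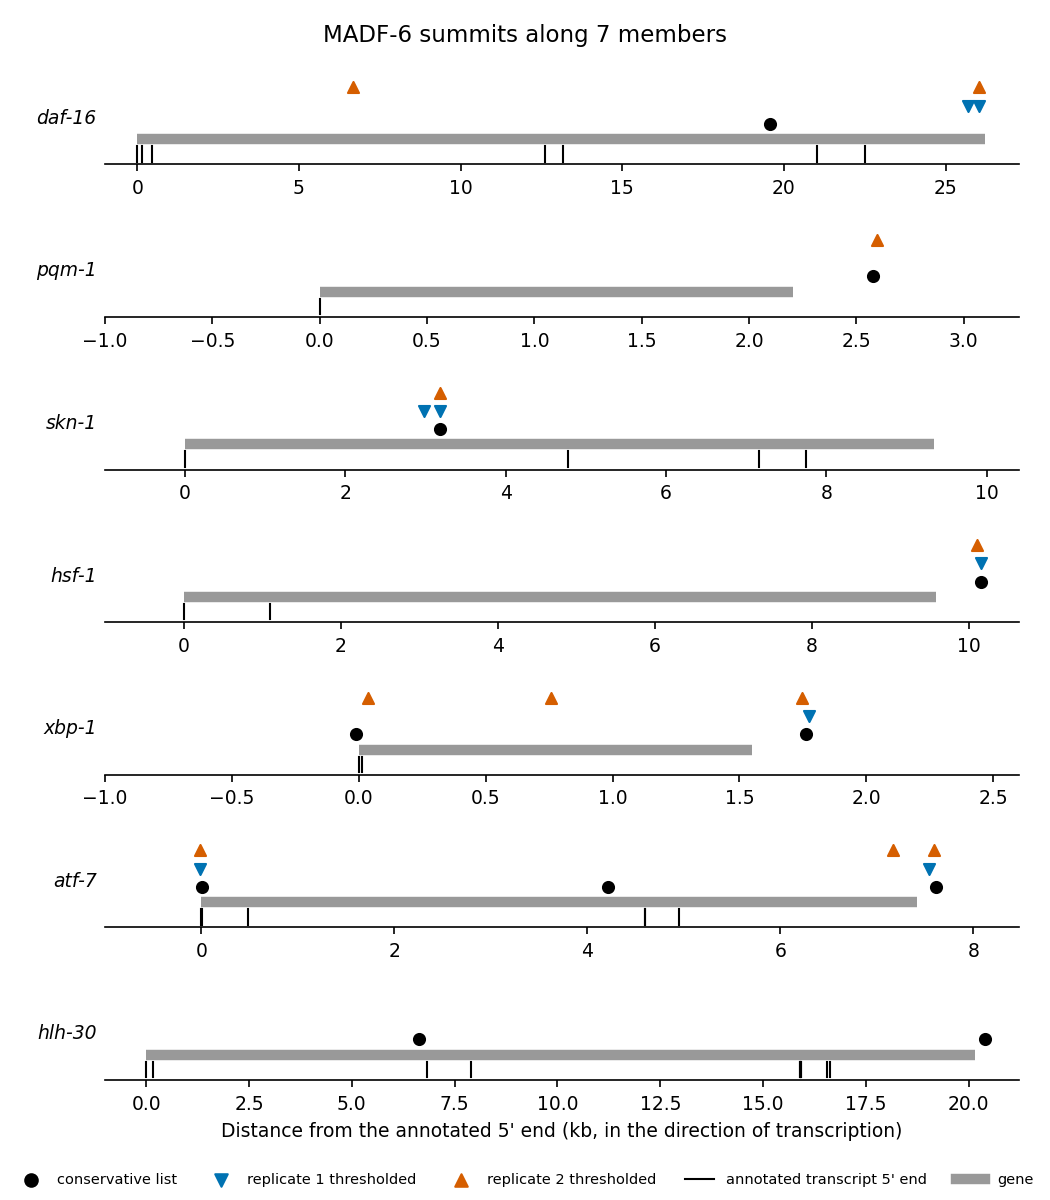
Each row shows 1 of the 7 regulators with a conservative summit in the gene or past its 3′ end, with the distance from the annotated 5′ end in kb on the horizontal axis, in the direction of transcription. The grey bar is the gene, ticks below it are annotated transcript starts, circles are conservative summits and triangles are thresholded summits of each replicate. In skn-1 the circle and a triangle of each replicate coincide 3175 bp from the 5′ end, and in hlh-30 no triangle accompanies either circle.

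The other genes of these pathways were taken from 8 lists of 102 genes. Over all 102, 25 had a conservative summit near the 5′ end (24.5%), 16 were called in replicate 1 (15.7%) and 26 in replicate 2 (25.5%), beside 15.8%, 11.4% and 16.5% of all protein-coding genes. Of 17 insulin pathway kinases, phosphatases and adaptors 3 were called, among them rheb-1, the Rheb GTPase upstream of TORC1, with a signal of 335, and rict-1, the Rictor subunit of TORC2, with 134. Both were called in each replicate, and both summits are shared with the 5′ end of a neighbour, spk-1 for rheb-1 and gfm-1 for rict-1. The summit at rict-1 lies 514 bp upstream of the rict-1 5′ end. Of 13 insulin-like ligands 1 was called, ins-37 with a signal of 166, in replicate 1 but not in replicate 2.

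DAF-16 partners and regulators had the largest share, 7 of 12 in the conservative list, but 3 of 12 in replicate 1 and 7 of 12 in replicate 2. The highest was par-5, a 14-3-3 protein gene, with a signal of 1138 at rank 127, 720 bp upstream and shared with the 5′ end of M117.3. It was followed by imb-2, a nuclear import receptor gene, with 347. Then came math-33, a deubiquitinase gene, with 246 at 520 bp upstream, shared with erfa-3, and eak-7 with 155. These proteins act on DAF-16, whose own gene was not called at its 5′ end. eak-7 was called in replicate 2 with a signal of 112 and not in replicate 1.

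Of 10 genes of the SKN-1 and p38 pathway 2 were called, xrep-4, shared with cey-2, with a signal of 858, and the nuclear receptor gene nhr-49 with 105. The xrep-4 summit lies 796 bp upstream, and xrep-4 was called in each replicate. nhr-49 was called in replicate 2 with a signal of 66.3 and not in replicate 1. Of 5 heat shock response regulators 2 were called in the conservative list and in each replicate: hsp-90, the Hsp90 chaperone gene, with 628, shared with C47E8.4, and hsb-1, the gene of an HSF-1 binding protein, with 512, shared with let-99. The summit at hsp-90 lies 842 bp inside the gene. Of 14 unfolded protein response genes 5 were called in the conservative list. Replicate 1 called 4 and replicate 2 called 6, each including a gene without a conservative summit. The highest conservative signal was 697 at atfs-1, the gene of a bZIP factor of mitochondrial stress, 587 bp upstream of the 5′ end. It was followed by ubl-5, the gene of a ubiquitin-like protein of the same response, with 290. Then came hsp-4, the BiP chaperone gene that XBP-1 induces, with 282 at 574 bp upstream. The calreticulin gene crt-1 had 122 at 894 bp upstream and was called in replicate 2 (signal 101) but not in replicate 1.

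Of 12 regulators of hypoxia, CREB signalling and autophagy 2 were called, cbp-1, the CBP/p300 coactivator gene, with a signal of 191 and mdl-1, a Mad-like bHLH factor gene, with 96.5. The cbp-1 summit lies 892 bp upstream, and cbp-1 was called in each replicate. mdl-1 was called in replicate 2 with a signal of 61.7 and not in replicate 1. Of 19 downstream effectors 3 were called, the catalase gene ctl-3 with 130 and the superoxide dismutase genes sod-2 with 98.5 and sod-1 with 85.5. This 15.8% of effectors is the same share as that of all protein-coding genes. In replicate 1 a single effector, ctl-3, was called, and sod-1 was called in neither replicate's own list.

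**Figure D4:**
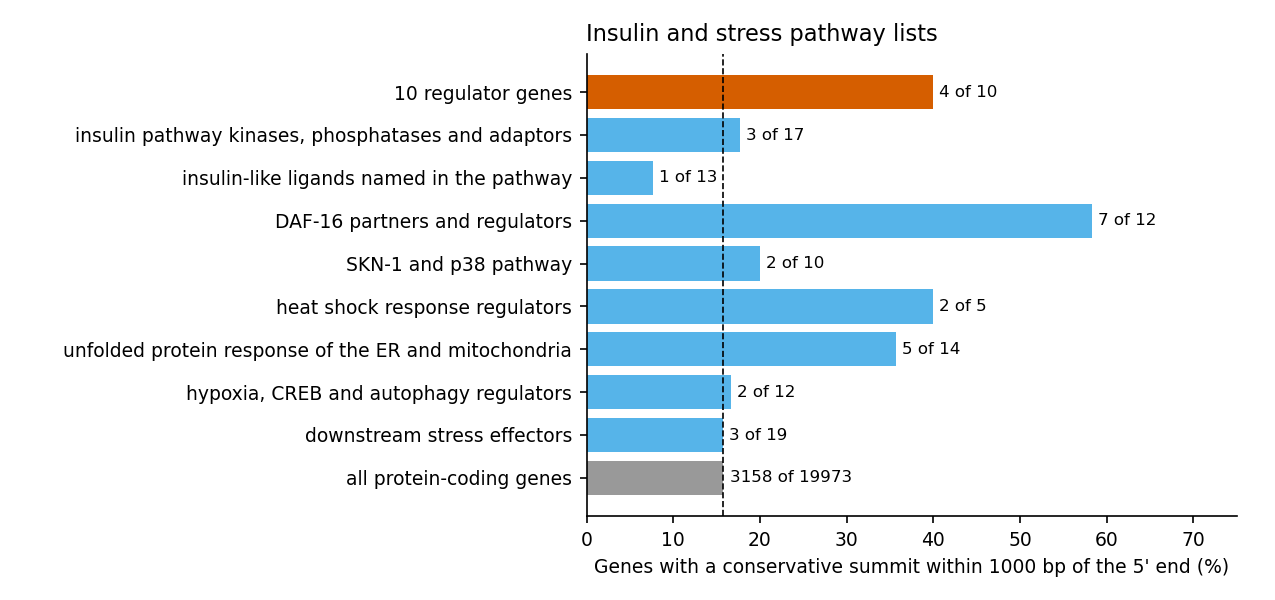
Bars give the percentage of genes with a conservative summit within 1000 bp of the 5′ end in the 10 regulators, in each of the 8 lists of other pathway genes and in all protein-coding genes, with the counts beside the bars. The dashed line marks the 15.8% of all protein-coding genes. The lists run from 1 of 13 ligands to 7 of 12 DAF-16 partners. They hold 5 to 19 genes, so 1 gene moves a bar by 5.26 percentage points in the longest list and by more in every other.

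The 301-bp windows at the 4 conservative 5′ summits were searched on both strands for letters that the regulators' own proteins are known to bind. The CRE letters TGACGTCA, bound by factors of the CREB and ATF families, were in 2 of the 4 windows, those of xbp-1 and crh-1, against 2.21% of all 4384 conservative windows and 1.28% of equal windows at protein-coding 5′ ends. In xbp-1 they lie 62 to 55 bases before the summit on the plus strand, and in crh-1 97 to 104 bases after it. CRH-1 itself belongs to the CREB family. In crh-1 the match overlaps the E-box CACGTG at 93 to 98 bases after the summit (7.14% of conservative windows), and in xbp-1 it overlaps ATGAC, a SKN-1 core, read on the minus strand at 58 to 54 bases before it (29.9% of conservative windows). ATGAC is not marked in the printed windows.

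The xbp-1 window also holds CTTATCA, the DAF-16 associated element, 112 to 106 bases before the summit (3.40% of conservative windows). The daf-2 window holds GAANNTTC, a pair of heat shock element units, 100 to 107 bases after its summit (20.2% of conservative windows). Neither the DAF-16 binding element GTAAACA (3.63%) nor the unfolded protein response core ACGTGG (9.65%) was in any of the 4 windows. GCGC aside, the atf-7 window held none of the letters named so far. The window after xbp-1 holds CACGTG 5 to 10 bases after the summit, flanked so that ACGTGG is read there on both strands, at 4 to 9 and 6 to 11 bases. In the other windows in or after the genes, the daf-16 intron holds ACGTGG 65 to 60 bases before the summit, and the window after hsf-1 holds GAANNTTC 20 to 13 bases before it. ATGAC stands 25 to 21 bases before the skn-1 summit, 45 to 49 bases after the intronic atf-7 summit and 66 to 70 bases after the pqm-1 summit. The atf-7 intron also holds the CRE letters, 134 to 127 bases before the summit. None of these letters was in the windows after atf-7 or at either summit of hlh-30. None of these letters was within 50 bp of any of the 4 summits at 5′ ends. A match is a description of the sequence, not a binding site.

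GCGC was added to the search after the words at all summits had been counted, where 8 of the 10 words of 6 bases most enriched over positions 300 bp away held it. It was within 50 bp of the summit at daf-2, 38 to 35 bases before it, and at atf-7, 45 to 42 bases before it, and absent from the windows of xbp-1 and crh-1. Among the 9 summits in or after the genes it was within 50 bp at skn-1, at the atf-7 intron, after pqm-1 and at both summits of hlh-30. Over all conservative peaks 45.4% of these 101-bp windows held it, against 11.8% of equal windows 300 bp away. The words were counted in these same windows, so this difference follows from how GCGC was chosen. The GC content of the 301-bp windows was 30.2% at daf-2, 32.6% at atf-7, 35.2% at crh-1 and 43.2% at xbp-1, around the median of 37.5% over all conservative windows. The intronic windows held 41.9% in atf-7, 45.8% in skn-1, 53.2% in daf-16 and 57.1% at the internal start of hlh-30.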

How the data were processed

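MADF-6 ChIP-seq peaks of 2 biological replicates were analysed from 8 deposited peak lists on ce11. Per the text deposited with the lists, the authors called peaks against 1 control library shared by both replicates and applied an irreproducible discovery rate procedure to each replicate and to both combined. For the aligner and the peak caller, no name was found in the labels or headers (not given in the sources used here). Both the score and the signal of each peak are the authors' deposited values, used without rescaling, and summits are the deposited offsets. Ranks were computed here from the signal within each list. The ranked lists hold 10 unnamed columns per call, which were not used. Read depth is unknown, so no interval is given.

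Summits were assigned to every gene whose annotated 5′ end lay within 1000 bp (Ensembl release 115; Python 3.11.15, pandas 2.3.3, NumPy 2.4.6, Matplotlib 3.10.9). Trans-splicing is common in C. elegans, so an annotated 5′ end can lie downstream of where transcription begins. Sequences and motif windows were read from the RefSeq copy of WBcel235. The rule that assigns summits to 5′ ends was tested on simulated summits, and the other procedures were not. With 1 group and no untagged strain analysed here, no test between conditions was made. The regulators, the lists of other pathway genes and the motifs were chosen with earlier results of these data known, and GCGC and the comparison of long genes were added after the data had been seen. Named are the 10 regulators, genes sharing their summits, the tagged gene and up to 4 genes of highest conservative signal per list, of which 1 is not reported here. The nearest neighbours and the genes around the internal peaks were named after their values were seen. Genes of similar pattern are not named, since there are only 2 libraries of 1 group. Alternatives covered other windows, lists, 5′ ends and assignment rules and each replicate alone.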

Additional observations from a re-analysis of the deposited data

How the results depend on the processing

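The count of 4 regulators with a conservative summit fell to 2, daf-2 and crh-1, in the 2192 conservative peaks of higher signal, where 2059 protein-coding genes were called. With a window of 250 bp it was 3, without crh-1, and 1625 protein-coding genes were called. It was 4 with windows of 500 bp (12.3% of all protein-coding genes called) and 2000 bp (21.0%). It was also 4 with any base of the peak in reach (16.5%) and in the less strict list (17.3%). It was 5 with the starts of all transcripts (16.6% of all genes), which added hlh-30. It was 3 when each summit went to its nearest 5′ end (12.3% of all genes), which gave the atf-7 summit to C07G2.5. The lists of single replicates gave 3 to 4 regulators and 2279 to 3299 protein-coding genes, and xbp-1 rested on replicate 2. The share of genes with a summit in or after the body was 12.1% over all genes and 23.2% among long ones. The 6 matches of fixed letters in the windows at 5′ ends fell to 0 within 50 bp of the summits. The causes were not tested. No paired analysis was possible because there is 1 group. Without read counts, without an untagged strain and with 2 replicates, what depth allows to be detected is unknown, and a regulator that was not called is not shown to lack MADF-6.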
